A study of Mus musculus with 56 samples.

Results

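The genes described here are 32 genes of cholesterol handling, measured in whole mouse adrenal glands by bulk RNA sequencing of poly(A) RNA. They were chosen by function from a fixed symbol list. The list holds 7 enzymes of the mevalonate steps, 11 enzymes from squalene to cholesterol, 5 genes of sterol sensing, 4 of uptake and transport, 3 of ester storage and release and 2 of efflux. All 32 were found among the 55487 gene identifiers of the female and male count tables and the 55414 of the surgery table. All 32 also passed the filter on low counts, which left 18645 genes for testing in females, 17086 in males and 16961 among the operated animals.

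The study followed glands that first enlarge and then regress after loss of Znrf3, whose product is a ubiquitin ligase that clears Wnt receptors from the cell surface. Mice were C57BL/6J, and the 56 libraries form 14 groups of 4, each from independent animals per the series text. Conditional knockouts (cKO) carried SF1-Cre and were Znrf3 Fx/Fx. SF1-Cre acts in steroidogenic cells, so the other cells of the gland keep Znrf3. Controls were littermates negative for SF1-Cre, with no Znrf3 allele named in the labels. Female glands came from weeks 6, 9 and 12, male glands from weeks 4, 6 and 9. A further 8 males, all SF1-Cre+ and Znrf3 Fx/Fx, were castrated or sham-operated at week 4 and taken at 9 weeks. Of these, 3 carried an R26eYFP reporter allele (1 castrated, 2 sham), 3 carried R26mTmG (2 castrated, 1 sham) and 2 carried none. In bulk tissue, fewer cells of a type and less RNA per cell cannot be told apart.

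Cholesterol is the starting material of all adrenal steroids. Adrenal cells make it from acetyl-CoA through mevalonate, farnesyl diphosphate, squalene and lanosterol, and they also take up cholesteryl ester from lipoproteins and store it in lipid droplets. When membrane sterol is low, the escort protein encoded by Scap carries the transcription factors encoded by Srebf1 and Srebf2 from the endoplasmic reticulum to the Golgi, where they are cut and released to switch on synthesis genes. The proteins encoded by Insig1 and Insig2 hold this complex back when sterol is plentiful. Surplus sterol is exported by transporters such as those encoded by Abca1 and Abcg1.

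Total counts per library (M, mega) ran from 35.7 to 51.6 M in females, 12.4 to 35.5 M in males and 25.1 to 42.4 M in operated animals. The 32 genes together took 0.335% to 0.708% of the counts of a library. The 7 cortex markers (such as Star and Nr5a1) were above 0 in every library, and their summed level ran from 20000 to 50900 CPM, the count scaled to library size. Znrf3 itself had a higher, not lower, gene-level count in the cKO, with 55.6 to 101 CPM in cKO females at 6 weeks against 33.5 to 40.4 in controls, and no overlap between the groups in any of the 6 sex and week comparisons. A count over the whole gene does not show which exons were removed, so it is no check of the deletion, and genotypes follow the labels. Sham replicate 1 had 9.87% mitochondrial counts against 2.41% to 4.44% in the other 7 libraries of the surgery series. Levels are never compared across the 3 tables.

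Per kilobase of exon, Scarb1 led the members in control glands, at 246 CPM per kb in females and 315 in males at 9 weeks. Soat1 followed in females at 72.1 CPM per kb, and Dhcr7 in males at 71.8. The lowest was Abcg1 in females, at 2.17 CPM per kb, and Hsd17b7 in males, at 1.37. Among the synthesis enzymes Dhcr7 led in both tables, with 67.5 CPM per kb in females, and Hmgcs1 followed in females at 50.7.

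Promoter windows of 300 bases, 250 before and 50 after a start site, were at hand in RefSeq (GRCm38.p6) for 25 of the 32 members. Of these 25, 21 held the letters CCAAT or, on the other strand, ATTGG, against 41.1% of 27025 genes. GGGCGG or CCGCCC was present in 23 of 25, against 38.2% of genes, and TCACNCCA or TGGNGTGA in 3 (Hmgcs1, Msmo1 and Srebf2), against 4.97%. CCAAT is the core of boxes known to bind NF-Y, GGGCGG is a box known to bind Sp1, and TCACNCCA is contained in classic sterol regulatory elements. The members' windows were richer in G and C, with a median of 62.7% against 53.3% over all genes, and GGGCGG shares that composition. Some of these letters can overlap, and a match describes the sequence only. The 4 windows below belong to 3 of the members that rose most after castration and to Tm7sf2, the member with the smallest p in females at 6 weeks. They are printed 5′ to 3′ on the strand of the gene, and capitals mark CCAAT or ATTGG in all 4 and TCACCCCA in Hmgcs1.
Hmgcs1, GRCm38.p6 chr13:119690101-119690400, plus strand: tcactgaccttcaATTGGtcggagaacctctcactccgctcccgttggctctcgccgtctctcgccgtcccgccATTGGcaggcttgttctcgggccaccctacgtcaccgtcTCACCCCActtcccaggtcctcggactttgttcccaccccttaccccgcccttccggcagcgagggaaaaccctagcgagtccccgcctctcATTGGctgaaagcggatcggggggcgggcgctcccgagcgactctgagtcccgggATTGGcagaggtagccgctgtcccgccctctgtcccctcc
Hsd17b7, GRCm38.p6 chr1:169969156-169969455, minus strand: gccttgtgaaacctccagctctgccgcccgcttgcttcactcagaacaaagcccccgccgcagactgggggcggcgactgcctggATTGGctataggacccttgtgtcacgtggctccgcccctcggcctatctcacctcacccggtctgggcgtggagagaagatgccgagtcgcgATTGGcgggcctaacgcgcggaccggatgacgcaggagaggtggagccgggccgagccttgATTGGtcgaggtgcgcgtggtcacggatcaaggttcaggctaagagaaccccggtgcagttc
Idi1, GRCm38.p6 chr13:8885356-8885655, plus strand: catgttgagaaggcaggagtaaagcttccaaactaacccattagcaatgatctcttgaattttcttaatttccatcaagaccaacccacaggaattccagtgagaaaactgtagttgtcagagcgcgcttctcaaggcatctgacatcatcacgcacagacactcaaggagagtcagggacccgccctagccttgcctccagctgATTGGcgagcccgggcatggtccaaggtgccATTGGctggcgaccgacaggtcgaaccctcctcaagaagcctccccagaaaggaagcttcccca
Tm7sf2, GRCm38.p6 chr19:6067801-6068100, minus strand: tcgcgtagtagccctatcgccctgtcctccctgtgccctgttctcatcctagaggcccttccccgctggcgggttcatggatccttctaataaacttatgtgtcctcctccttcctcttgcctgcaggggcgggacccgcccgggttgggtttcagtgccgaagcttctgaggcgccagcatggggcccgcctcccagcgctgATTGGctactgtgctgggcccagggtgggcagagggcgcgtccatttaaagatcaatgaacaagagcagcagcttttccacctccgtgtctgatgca
Hmgcs1 held 4 such boxes, Hsd17b7 3, Idi1 2 and Tm7sf2 1.

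Of the 18 synthesis enzymes 11, 1 and 6 were called lower and 0, 3 and 0 higher in cKO females at 6, 9 and 12 weeks. In cKO males 2, 9 and 10 were lower and 1, 2 and 2 higher at 4, 6 and 9 weeks. A gene was called at an adjusted p under 0.05 (edgeR's quasi-likelihood test, Benjamini-Hochberg over all genes tested). P-values set the difference between groups against the spread between animals within groups, estimated over all groups in the fit. In females at 6 weeks 13 members were called lower and 2 higher, where 19.1% of all genes tested were lower and 14.2% higher. At 9 weeks 2 were lower and 4 higher (20% and 14.6% of all genes), and at 12 weeks 6 were lower and 2 higher (16% and 9.11%). In males 2 were lower and 1 higher at 4 weeks (12.9% and 6.29% of all genes), 10 lower and 5 higher at 6 weeks (11.9% and 8.19%), and 15 lower and 4 higher at 9 weeks (13.6% and 10.4%). The median log2 fold change of the 32 was -0.22, 0.12 and -0.07 in females and -0.06, -0.26 and -0.31 in males, in order of age. Over all genes tested it lay between -0.02 and 0.01.

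**Figure D1:**
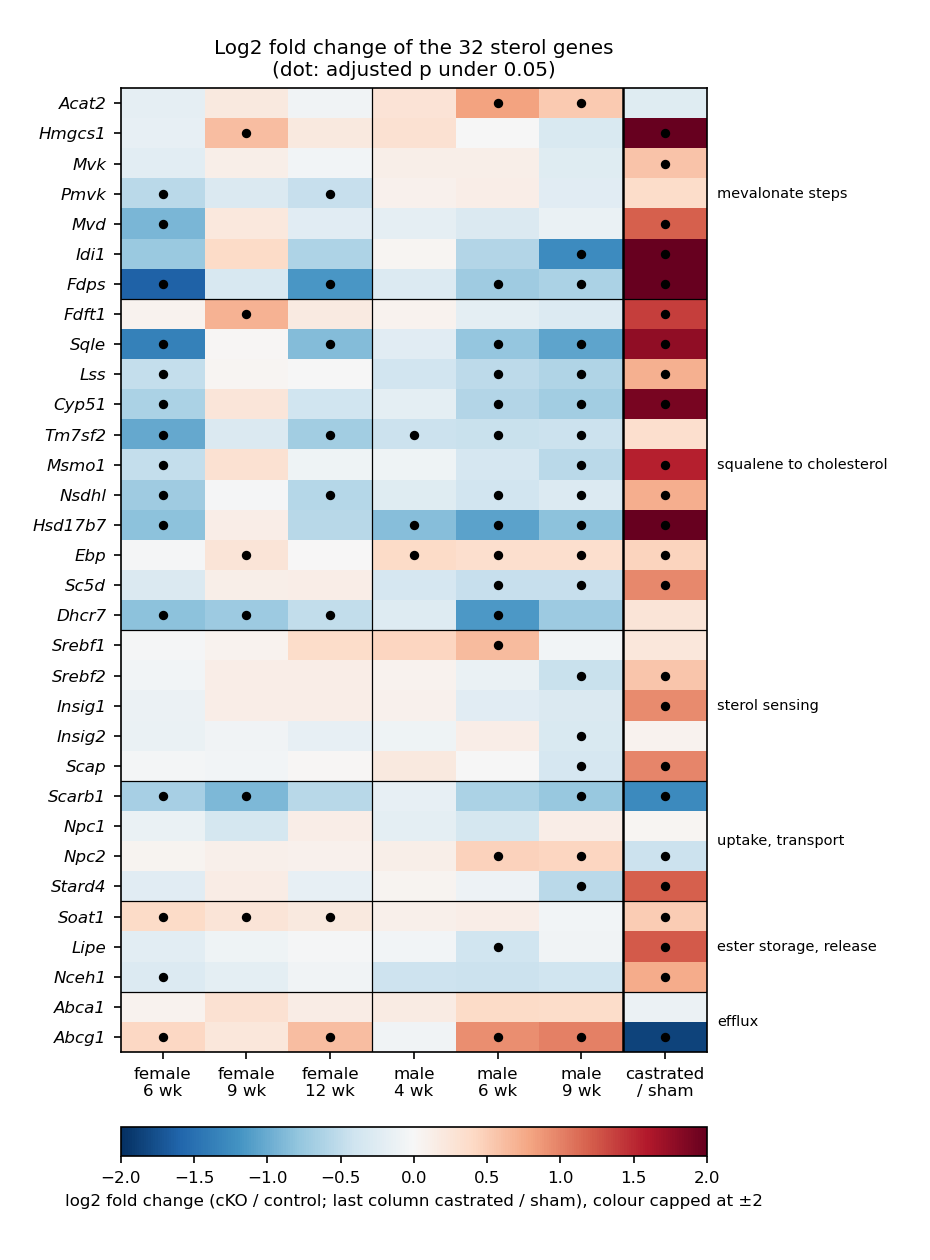
Log2 fold change of each of the 32 members (rows, by role) in the 6 genotype comparisons and in castrated against sham-operated cKO males, with a dot where the adjusted p was under 0.05. Tm7sf2 was called lower in 5 of the 6 genotype comparisons, Ebp and Abcg1 higher in 4, and 21 members were higher after castration.

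Of the 32 members, 20 were called lower in at least 1 genotype comparison, 8 higher in at least 1, and 0 in both directions. In a single comparison 11.9% to 20% of all genes were lower and 6.29% to 14.6% higher. The shares of all genes over the 6 together were not counted, so these totals are not read as particular to the members. Mvk, Insig1, Npc1 and Abca1 were called in none of the 6. Tm7sf2 was called lower in 5 comparisons, and Fdps, Sqle, Nsdhl, Hsd17b7 and Dhcr7 in 4 each. Ebp and Abcg1 were called higher in 4, and Soat1 in 3.

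Among the 18 synthesis enzymes, females at 6 weeks had 11 lower and 0 higher in the cKO, with a median log2 fold change of -0.59. Fdps makes farnesyl diphosphate, the branch point to sterols and isoprenoids (chromosome 3, 89093588 to 89101959). It was at 142, 128.5, 198 and 166 CPM in the 4 controls and at 64.3, 55.6, 47.6 and 40.9 in the 4 cKO. Every cKO library was below every control, and the log2 fold change was -1.61 ± 0.23 (SE; adjusted p = 1.04e-05). Tm7sf2, a sterol C14-reductase (chromosome 19, 6062821 to 6068373), had 27.7, 28.1, 24.3 and 30.0 CPM in controls and 12.1, 13.5, 14.3 and 13.95 in the cKO. The groups did not overlap (-1.03 ± 0.12, adjusted p = 3.96e-07).

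Sqle encodes squalene epoxidase, an oxygen-dependent step of the pathway. In the same females it was at 56.4, 46.4, 60.9 and 75.8 CPM in controls and 29.9, 30.9, 20.1 and 13 in the cKO. No cKO library reached the lowest control, and the log2 fold change was -1.35 ± 0.27 (adjusted p = 0.000444). Dhcr7, which makes cholesterol from 7-dehydrocholesterol, fell from 353 to 458 CPM in controls to 207 to 266 in the cKO (-0.82 ± 0.16, adjusted p = 0.000392). Mvd (-0.91 ± 0.18), Hsd17b7 (-0.82 ± 0.23), Nsdhl (-0.71 ± 0.14), Cyp51 (-0.63 ± 0.17) and Pmvk (-0.54 ± 0.13) fell too, each with 4 cKO libraries below 4 controls. Lss and Msmo1 fell by 0.47 on the log2 scale with overlapping groups. Hmgcs1, the first committed step before mevalonate, was at 226 to 382 CPM in controls and 179.5 to 347 in the cKO and did not pass the test (-0.16 ± 0.21, adjusted p = 0.596), nor did Idi1 (-0.75 ± 0.29, adjusted p = 0.0521).

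At 9 weeks the female picture was mixed. Of the 18 enzymes 3 were higher, 1 was lower, and the median log2 fold change was 0.12. Fdft1, which joins farnesyl units into squalene, was at 69.6, 59.3, 54.3 and 55.4 CPM in controls and 88.9, 93.2, 128 and 75.2 in the cKO. All cKO libraries were above all controls (0.69 ± 0.15, adjusted p = 0.000894). Hmgcs1 rose as well (0.61 ± 0.21, adjusted p = 0.0288), from 181 to 277 CPM in controls to 239 to 454 in the cKO, with 1 cKO library inside the control range. That call was lost without any 1 of control replicates 2 and 3 and cKO replicates 2, 3 and 4, where the log2 fold change ran from 0.47 to 0.61. Dhcr7 was the enzyme that fell, from 282 to 477 CPM to 204 to 278.5 (-0.73 ± 0.16, adjusted p = 0.00116).

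By 12 weeks 6 enzymes were lower in females and 0 higher: Pmvk, Fdps, Sqle, Tm7sf2, Nsdhl and Dhcr7. Fdps was at 106, 142, 70.5 and 167 CPM in controls and 68.4, 59.3, 47.3 and 40.7 in the cKO. The lowest control lay just above the highest cKO library, and the log2 fold change was -1.17 ± 0.23 (adjusted p = 0.000579). Tm7sf2 ran from 17.5 to 25.3 CPM in controls and from 11.4 to 16.4 in the cKO, again without overlap (-0.70 ± 0.12, adjusted p = 0.000105). Without the female libraries of any age over 10 CPM of the liver transcript Alb, 3 members were lower and 1 was higher. At this age these libraries were cKO replicates 2 and 4.

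The change of the genotype effect from 6 to 9 weeks in females had a median of 0.72 over the 18 enzymes, but 0 of 32 members passed edgeR's test of that change, with 15 at an unadjusted p under 0.05. Of all genes tested 12, or 0.0644%, passed it. In no comparison was the number of all genes at an unadjusted p under 0.05 counted, so nothing is read from such counts. The lowest adjusted p among members was 0.104, for Tm7sf2 (0.74 ± 0.16), followed by Mvd (1.12 ± 0.25, adjusted p = 0.109). DESeq2 called 5 members in this test. From 6 to 12 weeks 0 of 32 members passed edgeR's test, with 2 at an unadjusted p under 0.05, where 0.322% of all genes passed. DESeq2 called 0 there too.

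In males at 4 weeks 1 of the 18 enzymes was higher and 2 were lower, with a median of -0.19. Of the 11 enzymes from squalene to cholesterol 9 had a log2 fold change below 0 (median -0.24), and 6 of the 11 had an unadjusted p under 0.05. The share of all genes at that level was not counted. The cortex marker median was 0.22, and 15 of the 18 enzymes were below it. Ebp, the sterol isomerase, was at 35.5, 31.8, 31.2 and 25.2 CPM in controls and 37.1, 47.7, 36.2 and 40.7 in the cKO. The 4 cKO libraries were the 4 highest (0.38 ± 0.10, adjusted p = 0.00905). The call was lost with only the groups compared in the fit (0.39, adjusted p = 0.0704), with a term for the range of the library number (0.32, adjusted p = 0.0993) and with library numbers up to 24 only (0.20, adjusted p = 0.657), which leaves 1 control. Nsdhl was not called (-0.24 ± 0.09, adjusted p = 0.0595), with the 4 cKO libraries below the 4 controls. Tm7sf2 was lower (-0.43 ± 0.14, adjusted p = 0.0321) with overlapping groups. Hsd17b7, a keto-reductase of the pathway (chromosome 1, 169949535 to 169969241), was called lower (-0.85 ± 0.28, adjusted p = 0.0355) on 7.21, 19.2, 7.91 and 7.29 CPM in controls against 5.83, 4.19, 7.10 and 5.91 in the cKO. Without control replicate 2, the one at 19.2, it was -0.33 ± 0.23 (adjusted p = 0.319), and the same library left out brought Hmgcs1 past the threshold (0.60 ± 0.14, adjusted p = 0.00336). Tm7sf2 lost its call without any 1 of control replicates 1, 3 and 4 or cKO replicates 1, 3 and 4, where it ran from -0.42 to -0.28. Hsd17b7 also lost its call without cKO replicate 1, 2 or 4, at -0.82 to -0.68.

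At 6 weeks 9 of the 18 enzymes were lower in cKO males and 2 were higher, with a median of -0.41. Dhcr7 was at 389, 586, 487 and 642 CPM in controls and 259, 317, 241 and 134 in the cKO. The groups were apart (-1.15 ± 0.29, adjusted p = 0.00602). Nsdhl showed the tightest groups, at 26.8, 31.5, 27.8 and 25.8 CPM against 21.7, 21.6, 21.8 and 20.8. It fell by 0.38 on the log2 scale (SE 0.09, adjusted p = 0.00346). Hsd17b7 (-1.07 ± 0.29) and Tm7sf2 (-0.44 ± 0.14) fell without overlap, while Fdps, Sqle, Lss, Cyp51 and Sc5d fell by 0.46 to 0.78 on the log2 scale with overlapping groups. Acat2, which forms acetoacetyl-CoA at the start of the pathway, went the other way, from 28.4, 33.3, 32.1 and 29.4 CPM to 68.2, 50.5, 40.7 and 54.6. All 4 cKO libraries were above all controls (0.80 ± 0.17, adjusted p = 0.00121), and Ebp was higher too (0.33 ± 0.10, adjusted p = 0.0253).

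In males all 4 controls at 6 weeks carried a library number above 24 and all 4 cKO a number of 24 or below, so the number and the genotype cannot be told apart at that age within the groups. The labels do not say what the number marks. With the range of the number as a covariate over all male groups, 4 members were lower and 2 higher at 6 weeks. The count of 10 lower fell to 4 without control replicate 2, 5 without control replicate 4, 4 without cKO replicate 3 and 3 without cKO replicate 4. Without the male libraries of any age over 10 CPM of Alb, at this age cKO replicate 2, it was 6.

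At 9 weeks 10 enzymes were lower in cKO males and 2 higher, with a median of -0.44, and 8 of the 11 enzymes from squalene to cholesterol were lower. Sqle was at 31.95, 22.2, 27.7 and 19.7 CPM in controls and 12.9, 13.6, 9.88 and 12.1 in the cKO. The cKO libraries lay close together and below all controls (-1.06 ± 0.24, adjusted p = 0.00265). Idi1, the isomerase of the isoprene unit (chromosome 13, 8885501 to 8892451), was at 10.97, 4.69, 9.61 and 7.38 CPM in controls and 4.07, 3.39, 2.67 and 3.52 in the cKO. Its groups did not overlap (-1.26 ± 0.29, adjusted p = 0.00319). Fdps, Lss, Cyp51, Tm7sf2, Msmo1, Hsd17b7 and Sc5d fell by 0.43 to 0.82 on the log2 scale without overlap, and Nsdhl fell by 0.27 with overlap. Acat2 (0.52 ± 0.16) and Ebp (0.33 ± 0.10) were higher again.

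Dhcr7 did not pass the test in males at 9 weeks (-0.73 ± 0.29, adjusted p = 0.0683). Its cKO values were 471, 208, 175 and 154 CPM against 347 to 517.5 in controls, so replicate 1 was inside the control range and the other 3 were below it. Replicate 1 also had the highest cortex marker sum of the 4, 41100 CPM against 24300 to 26900, and the lowest macrophage marker sum, 1140 against 2070 to 5910. The count of 15 lower members depended on single libraries. It was 3 without cKO replicate 3, 5 without control replicate 1 or control replicate 3 and 7 without cKO replicate 2, and 0 with library numbers up to 24 only, which leaves 2 animals a group. With the number as a covariate it was 16. Without the male libraries of any age over 10 CPM of Alb, at this age cKO replicate 3, it was 2. Of the 4 higher members, 1 was called without cKO replicate 4 and 2 without control replicate 4 or cKO replicate 2.

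**Figure D2:**
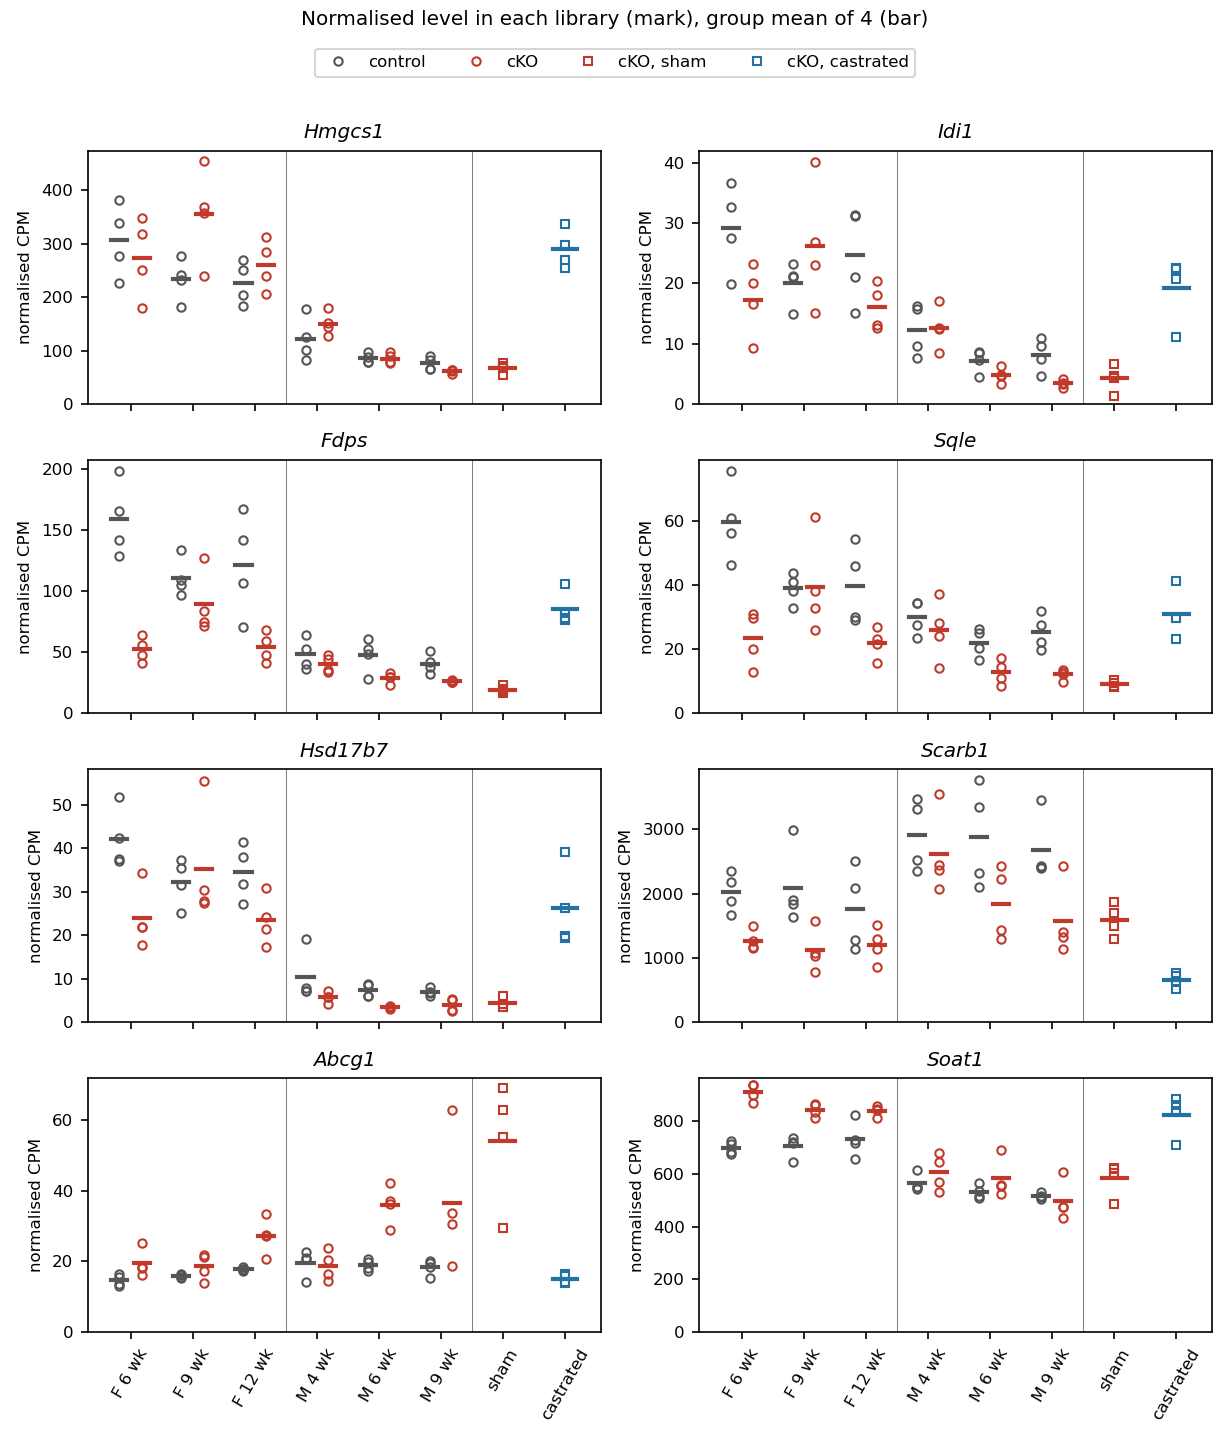
Normalised CPM of 8 members in each library (open marks; horizontal bars are means of 4) for control and cKO glands by sex and week, and for sham-operated and castrated cKO males. Vertical lines separate the 3 count tables, between which levels are not compared; castrated libraries lie above sham for Hmgcs1, Idi1, Fdps, Sqle, Hsd17b7 and Soat1 and below for Scarb1 and Abcg1.

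Between 4 and 9 weeks 15 members were lower and 3 higher in cKO male glands, where 20.9% and 20.8% of all genes were, and 8 of the 15 were synthesis enzymes. The enzyme median was -0.42 and the cortex marker median -0.48, with 5 of 7 cortex markers lower and 10 of the 18 enzymes above the cortex median. Of 12 macrophage markers 9 were higher, and the part of these cells in the members' changes was not tested. Hmgcs1 (chromosome 13, 119690379 to 119708260) went from 127, 144, 180 and 151 CPM at 4 weeks to 63.6, 62.0, 55.8 and 63.6 at 9 weeks. The 2 ages did not overlap (-1.30 ± 0.17, adjusted p = 8.64e-06). In control males it was the 1 member called over the same ages (-0.67 ± 0.17, adjusted p = 0.0268), where 2.22% of all genes were lower and 0.913% higher. That call was lost without any 1 of the 4-week controls 2 and 3 and the 9-week controls 2 and 4. In control females edgeR and DESeq2 each called 0 of 32 members between 6 and 12 weeks, where edgeR called 0.0912% of all genes. Of the members 8 had an unadjusted p under 0.05 in edgeR, a level not counted over all genes. In cKO females 2 members were higher at 12 than at 6 weeks, where 6.03% of all genes were higher and 3.9% lower: Abcg1 (0.48 ± 0.14, adjusted p = 0.0364) and Npc2 (0.17 ± 0.05, adjusted p = 0.0431). Neither was called without 6-week cKO replicate 1 or 3 or 12-week cKO replicate 2, 3 or 4, and 1 was without 6-week replicate 2 or 12-week replicate 1.

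The test of a change in the genotype effect from 4 to 9 weeks in males called 1 member, Scap (-0.54 ± 0.15, adjusted p = 0.0364), where 1.97% of all genes were lower and 2.94% higher. Idi1 was next (-1.29 ± 0.40, adjusted p = 0.0608). The Scap call was lost when any 1 of 6 libraries was left out (4-week controls 3 and 4, 4-week cKO 3, 9-week control 1, 9-week cKO 2 and 3). Leaving out others raised the count of lower members, to 4 without 4-week cKO replicate 1. From 4 to 6 weeks edgeR called 0 of 32 members and 0.00585% of all genes. Of the members 3 had an unadjusted p under 0.05, a level not counted over all genes. DESeq2 called 0 members there.

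**Figure D3:**
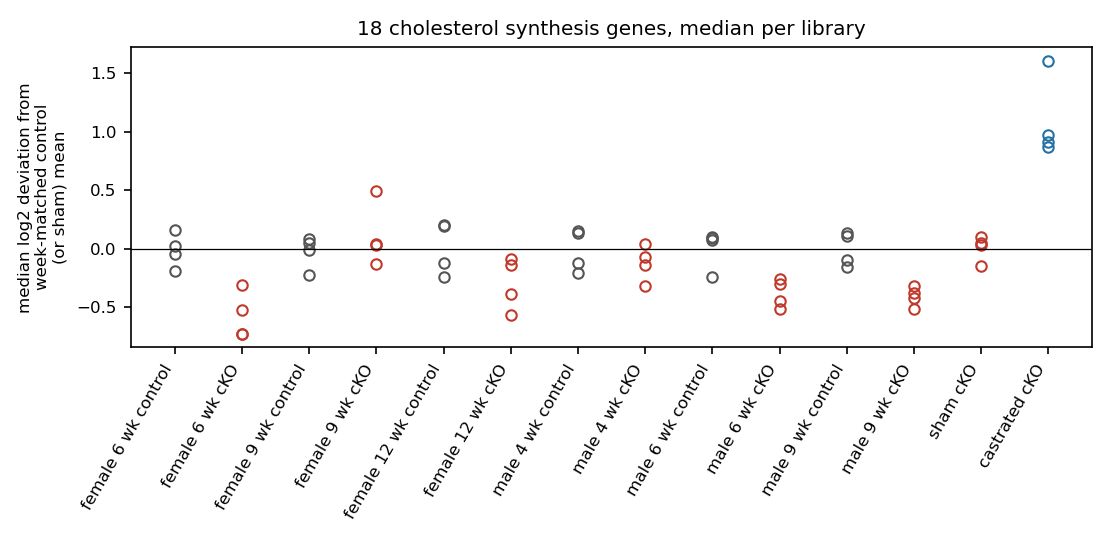
Median over the 18 synthesis enzymes of each library's log2 deviation from the mean of the controls of its sex and week, or from the sham mean for the surgery series (1 mark a library). The 4 cKO libraries sit at -0.73 to -0.31 in females at 6 weeks and at -0.52 to -0.32 in males at 9 weeks, and the castrated libraries at 0.87 to 1.61.

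Genotype effects were then compared between the sexes at matched ages. The sexes were deposited as separate tables, so sex and table cannot be told apart. At 9 weeks the effect was more positive in females for 8 of 32 members and more negative for 0, where 3.29% and 5.39% of all genes were. Of the 8, 6 were enzymes. Fdft1 differed by 0.98 ± 0.18 (adjusted p = 0.00539), on an effect of 0.69 in females and -0.28 ± 0.12 in males. Idi1 differed by 1.65 ± 0.39 (adjusted p = 0.019), with an effect of 0.38 ± 0.29 in females and -1.26 in males. For Msmo1, Cyp51, Hmgcs1 and Sqle the difference was 0.86 to 1.10, and Stard4 and Srebf2 followed at 0.70 and 0.60. Without any 1 of male control replicates 1 and 3 and male cKO replicate 3, 5 members were called.

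**Figure D4:**
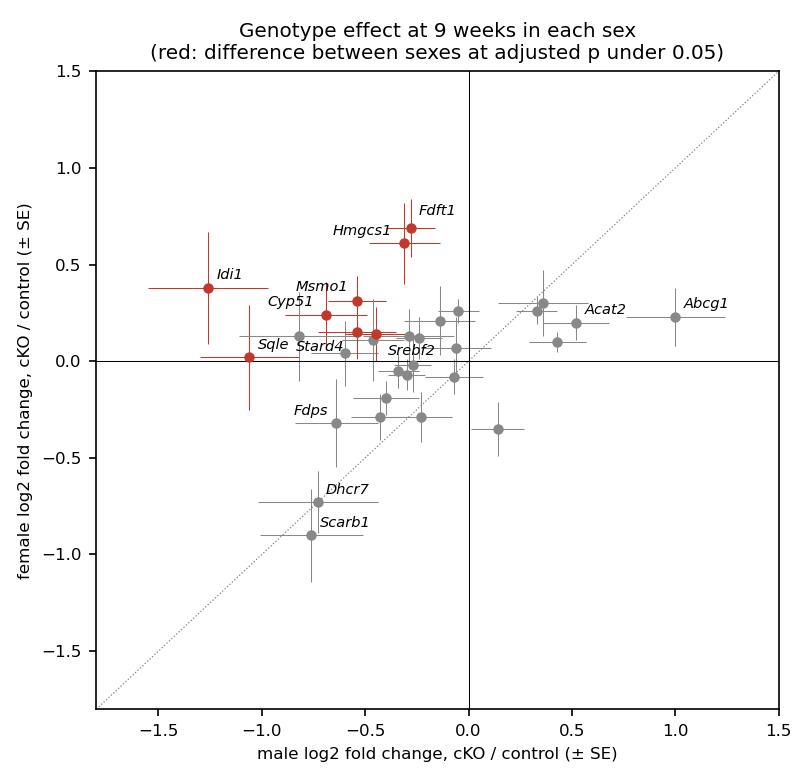
Log2 fold change of cKO against control at 9 weeks in males (horizontal) and females (vertical) for the 32 members, with SE bars and the line of equal effects dotted. The 8 members in red passed the test of the difference between the sexes, and all 8 lie above the line.

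At 6 weeks the called differences were negative, in members other than those called at the later age. No member passed the test at both ages, so no reversal within a member was shown. There 3 members had a lower effect in females and 0 a higher one, where 5.08% and 2.55% of all genes did. Acat2 differed by -0.96 ± 0.16 (adjusted p = 0.00287), on -0.18 ± 0.09 in females and 0.80 in males. Pmvk differed by -0.68 ± 0.20 (adjusted p = 0.0475) and Tm7sf2 by -0.57 ± 0.14 (adjusted p = 0.0179). Tm7sf2 fell in both sexes at that age, and further in females. The count rose to 5 without female cKO replicate 4 or male cKO replicate 3. The male 6-week effect used here is the one in which library number and genotype cannot be told apart.

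Of the 5 sterol-sensing genes none was called in females at any of the 3 ages, with log2 fold changes from -0.16 to 0.37. Srebf1, whose product drives fatty acid as well as sterol genes, was at 200, 192, 176 and 236.5 CPM in control males at 6 weeks and 411, 296, 284 and 260 in the cKO. The cKO libraries were all higher (0.64 ± 0.17, adjusted p = 0.00894), but the call was lost with a term for the range of the library number (0.71 ± 0.23, adjusted p = 0.0526). In males at 9 weeks Srebf2, the main factor for cholesterol genes, was at 177, 142, 150 and 125.0 CPM in controls and 107.5, 106, 95.9 and 124.9 in the cKO. Its highest cKO library was just under its lowest control (-0.45 ± 0.15, adjusted p = 0.0279). Scap (-0.34 ± 0.10, adjusted p = 0.0199) and Insig2 (-0.30 ± 0.09, adjusted p = 0.0229) fell with overlapping groups. Scap lost its call without any 1 of control replicate 1 and cKO replicates 2, 3 and 4, at -0.32 to -0.22.

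Among the uptake genes, Scarb1 encodes the receptor that takes cholesteryl ester from high-density lipoprotein (chromosome 5, 125277087 to 125341094). In females at 9 weeks it was at 1629, 1893, 2994 and 1836 CPM in controls and 782, 1038, 1575 and 1079 in the cKO. All cKO libraries were below all controls (-0.90 ± 0.24, adjusted p = 0.00634). It was -0.63 without the female libraries of any age over 10 CPM of Alb, and then missed the threshold (adjusted p = 0.116). At 9 weeks these libraries were cKO replicates 1 and 2. At 6 weeks it fell from 1669 to 2348 CPM to 1153 to 1501 (-0.67 ± 0.24, adjusted p = 0.0381), a call lost without any 1 of control replicates 1, 2 and 3 and cKO replicates 1, 3 and 4, at -0.70 to -0.59. At 12 weeks it was -0.55 ± 0.24 and not called (adjusted p = 0.104).

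In males Scarb1 fell at 9 weeks (-0.76 ± 0.25, adjusted p = 0.0292). Controls were at 3457, 2431, 2410 and 2403 CPM and cKO at 2426, 1323, 1142 and 1411, so cKO replicate 1 reached the control range. Stard4, a carrier of cholesterol between membranes, fell from 17.8 to 21.5 CPM to 11.5 to 15.0 in the same comparison, without overlap (-0.54 ± 0.19, adjusted p = 0.043). Npc2, a lysosomal cholesterol carrier, rose in males at 6 weeks, from 146, 150, 159 and 134 CPM to 233.5, 222, 166 and 189 (0.46 ± 0.14, adjusted p = 0.0191). At 9 weeks it rose by 0.43 ± 0.14 (adjusted p = 0.026) with cKO values of 156, 215, 169 and 287. The highest of these was the library with the highest macrophage marker sum. Its 9-week call was lost without control replicate 4, cKO replicate 2 or cKO replicate 4, at 0.25 to 0.42, and its 6-week call without control replicate 4 (0.43, adjusted p = 0.0561) and with a term for the range of the library number (0.48, adjusted p = 0.12). Npc1, its membrane partner, was not called at any age.

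Of the storage genes, Soat1 makes cholesteryl ester for the lipid droplet (chromosome 1, 156424525 to 156474331). It was higher in cKO females at all 3 ages. At 6 weeks controls had 715, 682, 726.5 and 678 CPM and cKO 900, 939, 937 and 870, with narrow ranges that did not overlap (0.38 ± 0.06, adjusted p = 3.56e-05). At 9 weeks it was 0.26 ± 0.06 without overlap (adjusted p = 0.00196), and at 12 weeks 0.20 ± 0.06 with overlap (adjusted p = 0.0174), a call lost without control replicate 4 (0.15, adjusted p = 0.0755). In males it was not called at any age, with -0.05 to 0.13, and the sex difference at 9 weeks was not past the threshold (0.32 ± 0.13, adjusted p = 0.122).

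Nceh1 and Lipe encode hydrolases that free cholesterol from its ester. Nceh1 fell in females at 6 weeks (-0.28 ± 0.09, adjusted p = 0.0206), from 321 to 385 CPM to 262.5 to 332.5. In males it was not called, at -0.43 (adjusted p = 0.0564) at 6 weeks and -0.40 (adjusted p = 0.0681) at 9 weeks, and the 4 cKO libraries were below the 4 controls at both ages. At 4 weeks it was -0.42 (adjusted p = 0.0647), and -0.12 (adjusted p = 0.509) without control replicate 2. Lipe passed the test once, in males at 6 weeks (-0.40 ± 0.14, adjusted p = 0.0455), on 103 to 145 CPM in controls and 76.4 to 113 in the cKO. That call was lost without any 1 of 6 libraries (control replicates 1, 2 and 4, cKO replicates 1, 3 and 4), at -0.40 to -0.28.

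Abcg1, the efflux transporter gene (chromosome 17, 31057675 to 31117988), was called higher in 4 of the 6 comparisons. In males it was -0.07 at 4 weeks (adjusted p = 0.878). At 6 weeks it was at 19.7, 17.2, 20.7 and 17.9 CPM in controls and 42.3, 37.0, 28.7 and 36.1 in the cKO. All cKO libraries were above all controls (0.93 ± 0.24, adjusted p = 0.00763). At 9 weeks cKO glands held 18.6, 33.7, 30.5 and 62.9 CPM against 15.1 to 20.1 in controls (1.00 ± 0.24, adjusted p = 0.00409), with cKO replicate 1 inside the control range. With library numbers up to 24 only it was 0.44 (adjusted p = 0.429). Females rose at 12 weeks (0.62 ± 0.15, adjusted p = 0.00296), from 17.1 to 18.3 CPM to 20.6 to 33.2, a call lost without the libraries over 10 CPM of Alb, a liver gene (0.46 ± 0.16, adjusted p = 0.0545), and at 6 weeks (0.42 ± 0.15, adjusted p = 0.0307). The 6-week call was lost without control replicate 1, control replicate 4 or cKO replicate 4, at 0.26 to 0.38. Abca1, the other transporter, was 0.07 to 0.39 in the 6 comparisons and not called in any.

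Of 12 macrophage markers, 9, 10 and 8 were higher in cKO females at 6, 9 and 12 weeks, and 1, 11 and 10 in cKO males at 4, 6 and 9 weeks, and none of the 12 was at 0 in any library. At 9 weeks in females neither Abcg1 nor Npc2 was called. The summed level of the 12 macrophage markers in males at 9 weeks was 1140 to 5910 CPM in the cKO and 517 to 691 in controls. At 6 weeks it was 867 to 2720 against 426 to 522. In females at 12 weeks it was 1080 to 1940 against 410 to 656. Medulla markers were lower in the cKO, at 658 to 1190 CPM against 7280 to 15200 in males at 6 weeks. The part of these cells in the members' changes was not tested. The cortex marker sum overlapped between genotypes at every age, from 40500 to 46100 CPM in the cKO and 38000 to 49000 in controls in females at 6 weeks. In males at 9 weeks the overlap came from cKO replicate 1 (41100 CPM): the other 3 cKO libraries (24300 to 26900) were below all controls (28400 to 38600), and the cortex marker median was -0.30 beside -0.44 for the enzymes.

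The X-zone is an inner fetal cortex layer of the mouse. Both of its markers, Akr1c18 and Pik3c2g, were lower in cKO females at all 3 ages. Their sum in cKO females was 7.09 to 43.5 CPM at 6 weeks against 1500 to 3480 in controls, 103 to 387 against 570 to 1620 at 9 weeks, and 16.5 to 148 against 581 to 2750 at 12 weeks. In replicate order, the 12-week cKO sums were 139, 148, 37.7 and 16.5 CPM. The median deviations of the 18 synthesis enzymes from controls were -0.09, -0.14, -0.39 and -0.57. The 9-week cKO sums were 103, 215, 387 and 210 CPM, beside medians of 0.03, -0.13, 0.49 and 0.04. The 6-week cKO sums were 43.5, 34.6, 7.09 and 11.5 CPM, beside -0.53, -0.31, -0.73 and -0.73. Among 9-week controls the highest sum, 1620 CPM in replicate 3, went with the lowest median, -0.23. In 4-week control males the sum was 265 CPM in replicate 2, the library with 19.2 CPM of Hsd17b7, and 0.81 to 2.15 in the other 3. In males at 6 and 9 weeks it was under 1 CPM in every library. In castrated cKO glands it was 13.3 to 113 CPM, highest in replicate 1, against 0 to 0.0781 in sham glands. The part of X-zone cells in the members' changes was not tested.

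After castration of cKO males most of the pathway was higher. Of the 32 members 21 were higher and 3 lower in castrated than in sham-operated cKO glands at 9 weeks, where 19.8% of all genes were higher and 23.8% lower. The median log2 fold change was 0.72 for the members and -0.01 over all genes. All 4 castrated libraries lay above all 4 sham libraries for 22 members, where 21.1% of all genes did. Of the 18 enzymes 14 were higher and 0 lower, with a median of 1.08. Leaving out any 1 of the 8 libraries gave 21 to 22 higher and 2 to 4 lower, with 21 and 4 without sham replicate 1. Without the 3 mTmG animals, which leaves 2 castrated and 3 sham, 16 were higher and 2 lower.

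Hsd17b7 rose most, from 3.59, 4.19, 6.09 and 3.51 CPM in sham glands to 39.0, 26.3, 19.4 and 19.9 in castrated ones. All castrated libraries were above all sham libraries (2.59 ± 0.27, adjusted p = 4.14e-05). Fdps went from 22.9, 16.3, 17.96 and 19.5 to 106, 82.4, 76.1 and 78.2 CPM (2.16 ± 0.15, adjusted p = 3.73e-06). Hmgcs1 went from 54.9, 75.8, 66.8 and 70.1 to 336, 298, 255 and 269 CPM (2.11 ± 0.14, adjusted p = 2.41e-06). In each of the 3 genes castrated replicate 1 was the highest library, as it was for the synthesis median at 1.61 against 0.87 to 0.97 in the other 3.

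Msmo1, a sterol demethylase subunit, went from 60.3, 64.8, 63.0 and 65.0 to 229, 176, 178 and 162 CPM (1.56 ± 0.12, adjusted p = 7.38e-06). Idi1 rose by 2.17 ± 0.39 (adjusted p = 0.00143) from 1.33 to 6.63 CPM to 11.1 to 22.5, the lowest sham value being that of replicate 1. Cyp51 (1.90 ± 0.20), Sqle (1.77 ± 0.17), Fdft1 (1.39 ± 0.14), Mvd (1.2 ± 0.17), Sc5d (0.96 ± 0.27), Nsdhl (0.72 ± 0.12), Lss (0.71 ± 0.13), Mvk (0.57 ± 0.14) and Ebp (0.45 ± 0.09) rose without overlap. The other 4 enzymes were not called: Pmvk (0.37 ± 0.18), Tm7sf2 (0.34 ± 0.23), Dhcr7 (0.26 ± 0.16) and Acat2 (-0.25 ± 0.10, with all 4 castrated libraries below sham).

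Among the sensing genes, Insig1 went from 30.8, 38.5, 31.1 and 31.5 CPM to 67.1, 63.1, 69.4 and 56.0 (0.95 ± 0.12, adjusted p = 0.000114). Scap (0.97 ± 0.13, adjusted p = 0.00027) and Srebf2 (0.56 ± 0.15, adjusted p = 0.0114) rose too, all 3 without overlap. Srebf1 (0.22 ± 0.17) and Insig2 (0.07 ± 0.20) were not called. Stard4 rose by 1.2 ± 0.19 (adjusted p = 0.00059).

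All 3 ester genes rose. Lipe, the hormone-sensitive lipase, went from 72.1, 73.7, 77.6 and 101.5 CPM to 178, 183.5, 184 and 219 (1.23 ± 0.13, adjusted p = 5.67e-05). The groups were far apart. Nceh1 (0.74 ± 0.19, adjusted p = 0.00942) and Soat1 (0.50 ± 0.13, adjusted p = 0.0109) rose without overlap.

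The 3 members that fell were Scarb1, Abcg1 and Npc2. Scarb1 was at 1288, 1502, 1693 and 1875 CPM in sham glands and 764, 519, 728 and 630.5 in castrated ones, without overlap (-1.27 ± 0.17, adjusted p = 0.000216). Abcg1 fell from 29.4, 69.0, 62.9 and 55.1 CPM to 14.1, 16.3, 15.9 and 13.8 (-1.85 ± 0.23, adjusted p = 0.000126). Its lowest sham library, replicate 1, was still above every castrated one. Npc2 fell by 0.43 ± 0.16 (adjusted p = 0.0464) with overlapping groups. Its call was lost when any 1 library other than sham replicate 1 was left out.

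**Figure D5:**
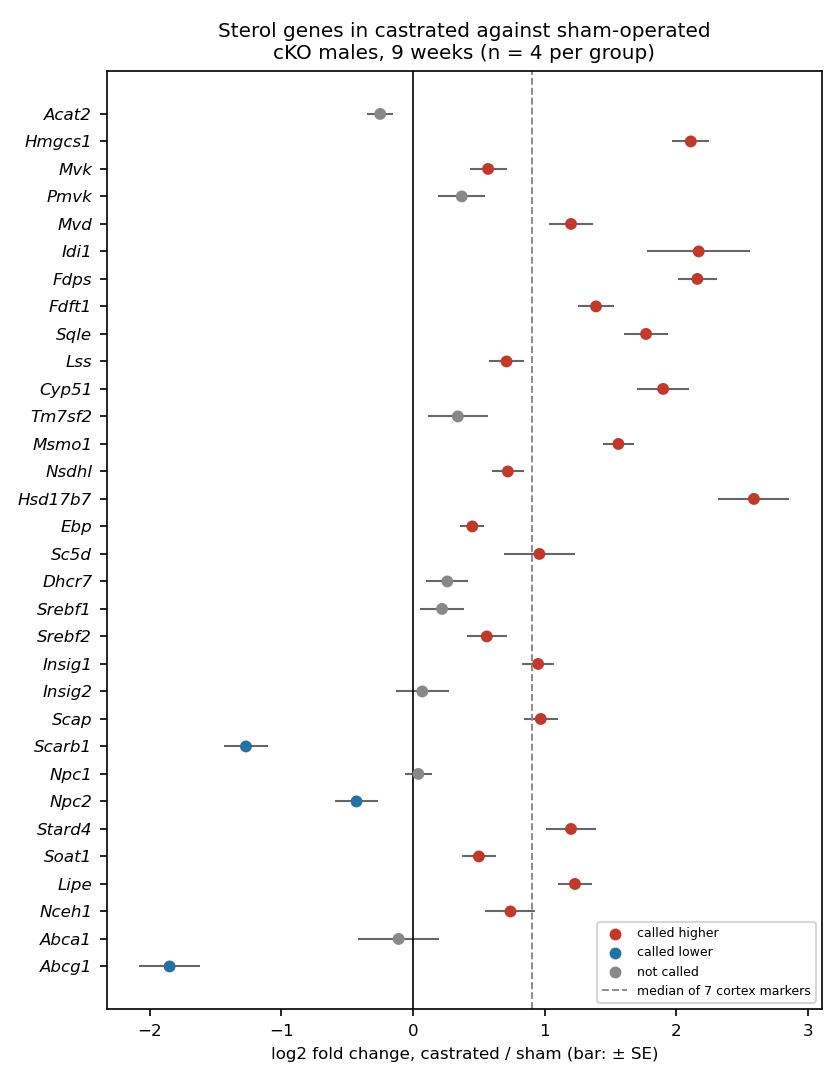
Log2 fold change of castrated against sham-operated cKO males for the 32 members (points; bars are SE; red called higher, blue called lower, grey not called). The dashed line is the median of the 7 cortex markers at 0.90, and 14 of the 32 members lie to the right of it.

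Cortex and macrophage markers moved in the same comparison. The cortex marker sum was 46900 to 50400 CPM in castrated and 20000 to 30200 in sham glands, 5 of the 7 markers were higher, and their median log2 fold change was 0.90. Of the 18 enzymes 10 lay above that median and 8 below it, and Scarb1, itself a cortical gene, went down. The macrophage marker sum was 541 to 850 CPM in castrated and 1930 to 3670 in sham glands, with 10 of 12 markers lower. The part of these cells in the members' changes was not tested. No control glands without cKO were castrated among the libraries used here.

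Of the 15 members lower in cKO males at 9 weeks, 12 (80%) were among the 21 higher after castration, which is 57.1% of the 21. As 21 of all 32 members were higher after castration, nothing is read from that count. The 2 comparisons share no library. The 3 others were Tm7sf2 and Insig2, not called after castration, and Scarb1, which was lower in both. Ebp was higher in both, and Abcg1 and Npc2, higher in the 9-week cKO, were lower after castration. For Npc2 the castration call was lost without any 1 library other than sham replicate 1.

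Other genes of sterol and lipid handling were followed as lists. Of all genes tested 19.8% were higher and 23.8% lower after castration, and 14.2% and 19.1% in cKO females at 6 weeks. Of 9 genes of Srebf processing and turnover, 3 were higher and 0 lower after castration. The list's median was 0.25, and in the genotype comparisons it had at most 1 call in either direction. Of 12 fatty acid synthesis genes, 6 were higher and 1 lower after castration (median 0.50), with Fads2, a desaturase, up by 1.71 ± 0.17, and Acaca and Acacb, the 2 acetyl-CoA carboxylases, at 1.38 ± 0.15 and -1.64 ± 0.17. In females at 6 weeks 5 of the 12 were lower and 0 higher (median -0.22), with both Acacb (-0.99 ± 0.10) and Acaca (-0.94 ± 0.21) down. The 9 genes of the isoprenoid branch, which shares precursors with sterols, had 3 higher and 0 lower after castration (median 0.23).

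Of 6 genes linked to the LXR sterol receptors 5 were higher and 1 lower in the 6-week male cKO (median 0.74). There 8.19% of all genes were higher and 11.9% lower. At 9 weeks 4 were higher and 0 lower (0.29), where 10.4% and 13.6% of all genes were. After castration 0 were higher and 4 lower (-1.11), where 19.8% and 23.8% of all genes were. Pltp, a lipid transfer protein gene, was at 32.3, 30.7, 26.2 and 30.3 CPM in controls and 45.5, 95.6, 79.7 and 126 in the cKO at 9 weeks (1.54 ± 0.31, adjusted p = 0.000964). After castration it was at 13.4, 18, 20.96 and 21.1 CPM against 103, 175, 145 and 143 in sham glands (-2.94 ± 0.20, adjusted p = 2.97e-06). The receptor gene Nr1h3 rose by 0.88 ± 0.16 in the 9-week cKO and fell by 0.93 after castration. Arl4c fell by 1.52 after castration, and by 1.59 in cKO females at 6 weeks. The macrophage marker sum in cKO males was 867 to 2720 CPM at 6 weeks, against 426 to 522 in controls. At 9 weeks it was 1140 to 5910 against 517 to 691, and after castration 541 to 850 against 1930 to 3670 in sham glands. The part of macrophages in the changes of these LXR-linked genes was not tested.

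Of 14 sterol transfer and lipoprotein genes, 5 were higher and 3 lower after castration (median -0.02), where 19.8% and 23.8% of all genes were. Gramd1b, which moves cholesterol from the plasma membrane to the endoplasmic reticulum, went from 386, 194.5, 245.5 and 219 CPM in sham to 1853, 1762, 1535 and 1511 in castrated glands (2.67 ± 0.22, adjusted p = 9.81e-06). The 2 groups were far apart. Lipa, the lysosomal esterase, rose by 1.49 ± 0.22 after castration and in cKO females at all 3 ages (0.77 ± 0.09 at 6 weeks), and Stard5 fell by 2.15. Of 9 steroid synthesis genes 5 were higher after castration (median 0.70), among them Star, which moves cholesterol into mitochondria, at 4397 to 7657 CPM in sham and 10740 to 12240 in castrated glands (0.90 ± 0.20, adjusted p = 0.00412). Cyp11a1, the side-chain cleavage enzyme that uses this cholesterol, was not called (-0.49 ± 0.22, adjusted p = 0.0907). Star fell in cKO females at 6 and 9 weeks (-0.72 ± 0.20 and -0.83 ± 0.20) and in cKO males at 9 weeks (-0.76 ± 0.26).

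Across the 24 female libraries, the genes whose log2 CPM was most like that of Tm7sf2 were Car8 and Gjb2 (Pearson's r = 0.93), Tbc1d8 (0.92), Efemp1 and Gpc5 (0.90). Fdps was the closest member at 0.89, in rank 8 of all genes, followed by Nsdhl (0.88) and Pmvk (0.84), while Soat1 was at -0.82. These libraries share genotype groups and a sequencing table, so the values describe likeness within this set.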

How the data were processed

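Poly(A) RNA of whole adrenal glands was sequenced in 56 libraries, per the labels' protocols from directional libraries. The values deposited by the authors are raw read counts per gene, in separate tables for females, males and the surgery series. The submitters' processing notes name STAR 2.7.6a, cutadapt 1.16, RSEM 1.6.3, DESeq2 1.30.1, featureCounts and the build GRCm38, without their roles or order. How strand was handled in counting is not given in these sources.

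Symbols came from a GENCODE M21 name table (GRCm38). Counts were filtered with filterByExpr (minimum count 10) and scaled by TMM, and levels are CPM with TMM factors. Each table was fitted over all its groups with edgeR 4.0.16 (quasi-likelihood, R 4.3.3), without a replicate block. Sexes were compared in a joint fit per age. The SE of an edgeR effect is its absolute log2 fold change divided by the square root of the test's F statistic. A gene was called at a Benjamini-Hochberg adjusted p under 0.05 over all genes tested. Log2 CPM for likeness used a prior count of 2. The median library held 41.6 M (mega) counts in females, 17.9 M in males and 33.6 M among operated animals, so counting error is largest in males. The fitting code was also run on simulated counts, with independent libraries and the same spread for every gene. These data are not so simple, so nothing is read from that run about the results here. Alternatives were DESeq2 1.42.0, RLE scaling, other filters, fits of the groups compared alone, a replicate block, library number terms and leaving out libraries.

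The members, the other gene lists and the tests were chosen with earlier results of these data known. All 32 members could be named. Values in every library are given for the smallest-p members of a comparison or role, and at most 3 smallest-p genes of each other list were named per comparison.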

Additional observations from a re-analysis of the deposited data

Results flagged for a closer look

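In 94 gene and group combinations, 5 had 1 library far from the other 3, where chance gives about 1 in 20. In control males at 4 weeks replicate 2 stood apart for 3 genes: Hsd17b7 at 19.2 CPM against 7.21 to 7.91, Nceh1 at 282 against 154 to 160, and Abca1 at 271 against 126 to 151. Lipe was at 219 CPM in castrated replicate 4 against 178 to 184, and Insig1 at 38.5 CPM in sham replicate 2 against 30.8 to 31.5.

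The genotype effect differed between groups, by edgeR's test of the difference, in 12 cases. In males Scap had a lower effect at 9 than at 4 weeks (-0.54 ± 0.15 SE, adjusted p = 0.0364). At 6 weeks the effect was lower in females than in males for Acat2 (-0.96 ± 0.16, adjusted p = 0.00287), Tm7sf2 (-0.57 ± 0.14, adjusted p = 0.0179) and Pmvk (-0.68 ± 0.20, adjusted p = 0.0475). At 9 weeks it was higher in females for Fdft1 (0.98 ± 0.18, adjusted p = 0.00539), Idi1 (1.65 ± 0.39, adjusted p = 0.019), Msmo1 (0.86 ± 0.21, adjusted p = 0.0198) and Cyp51 (0.95 ± 0.23, adjusted p = 0.0225). The same held for Hmgcs1 (0.93 ± 0.23, adjusted p = 0.023), Sqle (1.10 ± 0.30, adjusted p = 0.0344), Stard4 (0.70 ± 0.20, adjusted p = 0.0371) and Srebf2 (0.60 ± 0.17, adjusted p = 0.0415).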

How the results depend on the processing

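Signs were followed for the members with the 3 smallest p, and the smallest p of each role, in each genotype comparison and in castration. None of these changed sign in the fits of its comparison, and the signs of other effects were not followed. Of the 133 fits run, 88 left out 1 library. Another scaling moved the median of all genes by at most 0.03 on the log2 scale. Over the members followed in this way, leaving out a library ended 39 calls and added 6, and other settings ended 30 and added 6. The cause of the moved counts was not tested. The counts of called members that moved by more than 1.5 times are these. With only the groups compared in the fit, 1 member was higher in females at 6 weeks and 1 at 12 weeks, 0 were lower in males at 4 weeks, 3 had a higher effect at 9 than at 6 weeks in females, and 0 were called for the change from 4 to 9 weeks in males, for age in control males and for age in cKO females. With DESeq2, 2 were higher in males at 4 weeks, 5 had a higher effect at 9 than at 6 weeks in females, 1 was higher and 2 lower for the change from 4 to 9 weeks in males, and 6 had a lower effect in females at 6 weeks. With no low-count filter, 2 were higher and 0 lower in males at 4 weeks, 6 lower in males at 6 weeks, 2 lower for the male change from 4 to 9 weeks and 0 higher with age in cKO females. With a filter of 5 CPM in 4 libraries, 4 were lower in females at 9 weeks, 2 higher in males at 4 weeks, 2 lower for the male change from 4 to 9 weeks and 8 lower in the sex comparison at 6 weeks. RLE scaling left 1 higher with age in cKO females. Without libraries over 10 CPM of Alb, 1 was lower in females at 9 weeks, 1 higher and 3 lower at 12 weeks, 1 lower in males at 4 weeks, 6 lower at 6 weeks, 2 lower at 9 weeks, 0 lower for the male change, 0 higher with age in cKO females and 1 higher in the sex comparison at 6 weeks. With a term for the range of the library number, 0 were higher in males at 4 weeks, 2 higher and 4 lower at 6 weeks, and 0 lower for the male change and for age in control males. With library numbers up to 24 only, 0 were lower at 4 weeks, on 1 control against 4 cKO with the lone control assumed to vary like the other groups, and 0 higher and 0 lower at 9 weeks, on 2 a group. The 6-week comparison could not be fitted.

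Leaving out 1 library gave ranges for the counts of members higher and lower: 1 to 2 and 10 to 14 in females at 6 weeks, 3 to 4 and 2 to 4 at 9 weeks, 1 to 3 and 4 to 7 at 12 weeks; 1 to 3 and 0 to 2 in males at 4 weeks, 4 to 5 and 3 to 9 at 6 weeks, 1 to 4 and 3 to 13 at 9 weeks. For the male change from 4 to 9 weeks it was 0 to 1 and 0 to 4, for age 0 to 1 lower in control males, 0 to 2 higher in cKO females and 2 to 4 higher and 10 to 16 lower in cKO males. The sex comparisons gave 0 to 1 and 2 to 5 at 6 weeks and 5 to 10 and 0 to 1 at 9 weeks, and castration 21 to 22 and 2 to 4. Same-numbered libraries did not deviate together: 4 of 24 pairs had a correlation over 0.1 (-0.38 to 0.18), and 7 correlated best with their own number. With a replicate block, 1 member was higher with age in cKO females and 5 had a higher effect in females at 9 weeks. The block was not fitted for castration, where the sham libraries carry no numbers of their own. Depth limits low members most, such as Hsd17b7 in males.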
